A study of Rattus norvegicus with 12 samples.

Results

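Static cold storage was set against warm ischemia alone in 6 rat livers, 3 labelled SCS 4 h and 3 labelled WI 30 min, out of 12 livers sequenced, and every gene of the deposited count table entered the comparison. The SCS 4 h livers were held for 4 h in cold histidine-tryptophan-ketoglutarate (HTK) solution after 30 min of warm ischemia, and the WI 30 min livers had the same 30 min of warm ischemia and no further treatment. All donors were heparinized male Sprague Dawley rats, an outbred stock, of 6 to 8 weeks. Their hearts were stopped, the liver was left in place for the warm ischemia, and the aorta was flushed at procurement, which models donation after circulatory death (DCD). The other 6 livers, 3 HMP 1 h and 3 HOPE 1 h, had 3 h in HTK solution and then 1 h of machine perfusion at 4 °C, without (HMP) or with (HOPE) oxygenation of the perfusate. Tissue was taken before the simulated transplantation. No liver without warm ischemia was analysed here, so each value below sets stored livers against unstored ischemic livers and not against a healthy organ.

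Cold slows metabolism in a stored liver, but without blood flow the tissue stays without oxygen, ATP runs down and succinate builds up in the mitochondria. Transcription and RNA decay are slowed as well, at different rates for different transcripts, so the transcript pool of a stored organ can carry both new synthesis and unequal loss. Hepatocytes normally keep bile acid and sterol export, plasma protein synthesis and oxidative phosphorylation running at high level, and these functions, together with stress, immune and clock genes, were described by gene lists.

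Total counts were 15592012 to 17167688 in the SCS 4 h livers and 15262961 to 17083357 in the WI 30 min livers, and 13687 genes were tested, with 99.9% or more of each liver's counts. Mitochondrially encoded genes took 5.07% to 6.02% of counts in SCS 4 h and 5.07% to 5.77% in WI 30 min. All 13 hepatocyte markers were detected, and albumin alone took 9.37% to 14.3% of the counts in SCS 4 h and 12.6% to 13.8% in WI 30 min. Pearson r between livers, on log2 CPM (counts scaled to the library total with TMM factors), was 0.966 to 0.973 within the groups and 0.964 to 0.971 between them, so the SCS 4 h livers were about as far from each other as from the WI 30 min livers. No pair of libraries was a duplicate. HMP liver 1, with 18.7% of its counts from mitochondrial genes, and HOPE liver 3 stood apart by their macrophage and endothelial markers, and both enter only the shared estimate of the spread and the side by side values below.

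No gene passed the test between SCS 4 h and WI 30 min. With edgeR's quasi-likelihood test and Benjamini-Hochberg adjustment over 13687 genes, 0 genes (0%) were called higher and 0 (0%) lower at an adjusted p under 0.05, and the smallest adjusted p was 0.243. At an unadjusted p under 0.05, 379 genes (2.77%) were higher and 274 (2%) lower in SCS 4 h. That split of 58% higher depended on the scaling, since without mitochondrial genes 284 were higher and 370 lower (43.4% higher), and with the trend over gene length removed 235 were higher and 265 lower (47% higher). In 976 genes (7.13%) all 3 SCS 4 h livers lay above all 3 WI 30 min livers, and in 802 genes (5.86%) they lay below. These percentages are the background against which every gene list below is set. DESeq2, run as an alternative, called 13 genes higher and 2 lower. Most genes differed little, with quartiles of the log2 fold change at -0.16 and 0.19 and a median standard error of 0.24. With 3 livers a group, an exact permutation of 1 value cannot go below p = 0.1. The edgeR p-values rest on the spread within all 4 groups, since 1 model held all 12 livers, the perfused ones included. Genes are therefore described as higher or lower by their values, and the named genes, chosen by this same comparison, are a description.

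**Figure D1:**
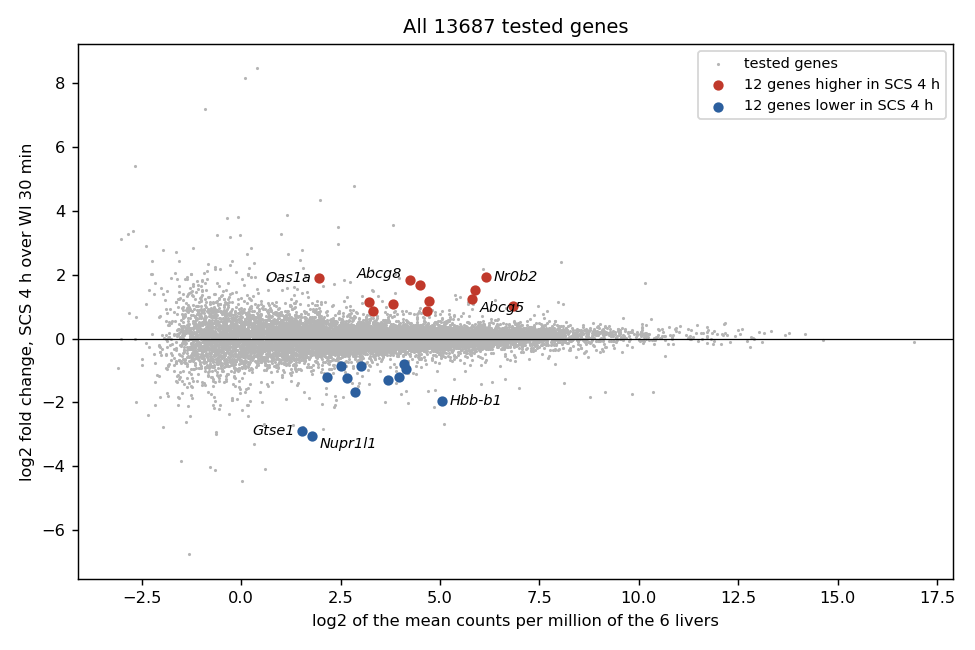
Log2 fold change of SCS 4 h over WI 30 min (y axis) against the log2 mean CPM of the 6 livers (x axis) for the 13687 tested genes, with the 12 named genes of each direction coloured. Most genes lie near 0, and Abcg8, at 1.82, and Gtse1, at -2.89, stand out at moderate expression.

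The smallest p of all genes belonged to Abcg8, and its partner Abcg5 was also higher in stored livers. The proteins of this gene pair join into the transporter that pushes cholesterol and plant sterols from the hepatocyte into bile, and the genes lie head to head on chromosome 6, with Abcg5 at 7935771 to 7961207 on the minus strand and Abcg8 at 7961413 to 7980708 on the plus strand in Rnor_6.0. Abcg8 had 30.8, 24.1 and 34.5 CPM in the SCS 4 h livers and 8.40, 7.12 and 9.73 CPM in the WI 30 min livers. Abcg5 had 70.9, 67.4 and 96.5 CPM in SCS 4 h and 30.1, 30.1 and 39.0 CPM in WI 30 min. In both genes every stored liver lay above every unstored liver, with a wide gap. The log2 fold change of Abcg8 was 1.82 ± 0.26 (SE, edgeR adjusted p = 0.243), and it was between 1.70 and 1.95 in the 23 alternatives, leaving out each liver in turn among them. Abcg8 passed the adjusted threshold in DESeq2 (adjusted p = 2.463e-06) and, narrowly, in edgeR without a filter on low counts (adjusted p = 0.0491). For Abcg5 the log2 fold change was 1.24 ± 0.24 (SE; edgeR adjusted p = 0.511, DESeq2 adjusted p = 0.003736), with a range of 1.06 to 1.38 over the alternatives.

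The promoter windows of these divergent genes overlap, and 1 of them is shown because both genes were higher in stored livers. The RefSeq windows in GRCr8, from 250 bases before to 50 bases after each start, overlap in 295 of their 300 bases. In GRCr8 Abcg5 is on the plus strand and Abcg8 on the minus strand, the reverse of Rnor_6.0. The plus strand window of Abcg5, at chr6:15717686-15717985, follows, with the only match to a searched motif, the TATA box TATAAA, in capitals. The same letters are the match in the window of Abcg8, read there on the other strand.
Abcg5 promoter: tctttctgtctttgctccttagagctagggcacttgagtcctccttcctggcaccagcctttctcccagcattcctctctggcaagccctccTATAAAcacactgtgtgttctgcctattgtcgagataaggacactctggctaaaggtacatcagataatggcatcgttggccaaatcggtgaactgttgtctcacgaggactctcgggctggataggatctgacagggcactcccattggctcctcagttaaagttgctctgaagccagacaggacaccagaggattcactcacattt

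Nr0b2 encodes SHP, a nuclear receptor without a DNA-binding domain that is induced by the bile acid receptor and represses bile acid synthesis. The gene, on chromosome 5 at 151776004 to 151779319 in Rnor_6.0, had 69.1, 100.2 and 168.7 CPM in SCS 4 h and 13.9, 14.2 and 61.1 CPM in WI 30 min, a log2 fold change of 1.92 ± 0.57 (SE, edgeR adjusted p = 0.962). WI liver 3 lay close to the lowest stored liver, and without it the value was 3.002, the highest of a range whose lowest was 1.51. Its RefSeq promoter window in GRCr8, chr5:151062910-151063209 on the plus strand, is shown because it is 1 of 6 matched increases and the only one of them with an E-box. Capitals mark the E-box CACGTG, which also holds the hypoxia element ACGTG, then the hypoxia element GCGTG and the TATA box TATAAA.
Nr0b2 promoter: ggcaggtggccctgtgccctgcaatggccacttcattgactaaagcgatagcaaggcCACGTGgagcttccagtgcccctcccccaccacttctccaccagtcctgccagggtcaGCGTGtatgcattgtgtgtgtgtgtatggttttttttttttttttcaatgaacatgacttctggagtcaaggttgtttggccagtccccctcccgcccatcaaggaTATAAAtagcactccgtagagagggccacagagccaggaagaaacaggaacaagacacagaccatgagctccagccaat

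Of the 24 named genes, 6 of 12 higher and 7 of 12 lower had a promoter window in the RefSeq table for GRCr8. Searched on both strands, TATAAA was in 4 of the 6 increases, Abcg5 and Abcg8 sharing 1 match, and in 2 of the 7 decreases, against 14.2% of 33469 promoters. CACGTG was in 1 and 0 of these windows, against 6.42% of all. Neither the heat shock element GAANNTTC nor the cyclic AMP element TGACGTCA was in any of them, against 8.59% and 1.83% of all. The hypoxia element ACGTG was in 1 increase and 1 decrease, against 19.3%, and GCGTG in 1 and 2, against 29.7%. A match is a run of letters in a window, not a binding site.

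Of 21 genes for bile acid and sterol handling, Abcg5, Abcg8 and Nr0b2 included, 17 were higher and 4 lower, with a median log2 fold change of 0.23 against 0.01 over all genes, and 6 (28.6%) were higher without overlap against 7.13% of all genes. Without those 3 genes, 14 of 18 were higher with a median of 0.18, and 3 (16.7%) without overlap. Akr1d1, the reductase that shapes the steroid ring of bile acids, had 1201, 1711 and 1721 CPM in SCS 4 h and 1006, 938 and 1077 CPM in WI 30 min (log2 fold change 0.62 ± 0.28). Cyp7b1, an enzyme of the alternative synthesis route, was at 4.77, 5.24 and 4.65 CPM against 2.59, 3.06 and 3.08 CPM. The genes that SHP is known to repress did not separate the groups: Cyp7a1, the rate-limiting enzyme of bile acid synthesis, had 22.3, 39.7 and 35.5 CPM in SCS 4 h and 94.9, 19.9 and 81.8 CPM in WI 30 min. Cyp8b1, the enzyme that sets the share of cholic acid, was at 1577, 1368 and 956 CPM against 2343, 2432 and 954 CPM. Nr1h4, the bile acid receptor FXR, was at 44.6, 61.8 and 49.5 CPM against 65.7, 78.9 and 60.9 CPM, so that its values crossed as well. The bile salt export pump Abcb11 (0.18) and the uptake carrier Slc10a1 (0.24) had small log2 fold changes.

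By the rule for named genes, 34 higher and 24 lower genes were eligible at an unadjusted p under 0.01 with no overlap of the livers and 5 CPM or more on average in 1 of the groups, and the 12 with the largest fold change of each direction are named. Oas1a, a sensor of double-stranded RNA induced by interferon, had 6.22, 5.78 and 6.48 CPM in SCS 4 h and 1.80, 0.75 and 2.36 CPM in WI 30 min (log2 fold change 1.90). Ifi27l2b, of the interferon-inducible Ifi27 family, had 127.6, 83.4 and 51.8 CPM against 31.9, 32.7 and 28.0 CPM (1.51). Both belong to families of close copies, so reads may have been divided between paralogs. Ccnd1, which encodes cyclin D1 for entry into the cell cycle, had 47.0, 18.0 and 38.7 CPM in SCS 4 h and 8.07, 12.6 and 11.6 CPM in WI 30 min (1.69). Sgk1, a kinase induced by glucocorticoids and osmotic stress, had 41.2, 19.4 and 49.9 CPM against 16.2, 14.7 and 18.0 CPM (1.17), and in both of these genes SCS liver 2 was the stored liver nearest to the unstored ones. Gne, the key enzyme of sialic acid synthesis, had 154.3, 171.5 and 131.0 CPM against 58.7, 81.8 and 86.6 CPM (1.01). Msra, which repairs oxidized methionine, had 21.5, 16.9 and 19.1 CPM against 10.04, 9.93 and 7.43 CPM (1.07). The remaining named increases, LOC100912427 (1.16), Rps18l1 (0.88) and LOC100360781 (0.87), are annotated as like the Y-box protein Ybx1 or as like ribosomal proteins S18 and L37, and as near copies of abundant genes their counts are uncertain.

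Among the named decreases, Gtse1, a microtubule-associated gene expressed in the late cell cycle and located on chromosome 7 at 126736732 to 126753220 in Rnor_6.0, had 0.62, 0.78 and 0.65 CPM in SCS 4 h and 6.99, 2.25 and 6.10 CPM in WI 30 min. Its log2 fold change was -2.89 ± 0.45 (SE, edgeR adjusted p = 0.247, DESeq2 adjusted p = 3.082e-05), and the range over alternatives was -3.24 to -2.60. Nupr1l1, a relative of the stress-induced gene Nupr1, had the lowest fold change, but it rests on 1 liver: SCS 4 h livers were at 0.95, 0.96 and 0.26 CPM and WI 30 min livers at 1.02, 1.69 and 15.7 CPM, and the log2 fold change of -3.05 became -0.88 without WI liver 3. Myc, the growth transcription factor and an immediate early gene, had 8.30, 7.22 and 7.003 CPM against 23.3, 20.4 and 11.3 CPM (log2 fold change -1.29, edgeR adjusted p = 0.930). Map2k3, the kinase upstream of p38, had 11.8, 6.56 and 9.69 CPM against 16.4, 26.2 and 22.4 CPM (-1.21). Ncapd2, a condensin subunit (-0.86), Sipa1l3, a regulator of the small GTPase Rap (-0.86), Usp40, a ubiquitin-specific peptidase (-0.80), and AABR07051376.1, for which the files give no description (-1.20), were lower by smaller amounts. Cry1, Hbb-b1, LOC103694855 and Bpgm, which complete the decreases, are described with the clock and red cell genes.

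**Figure D2:**
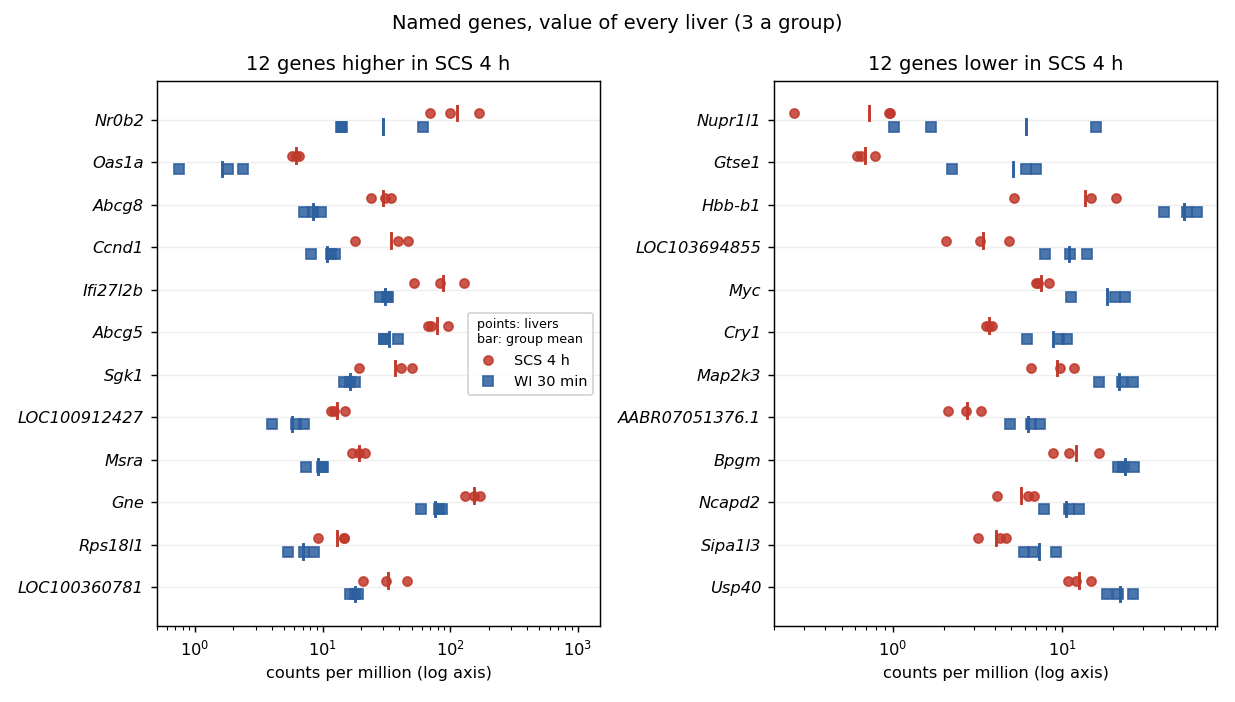
CPM on a log axis of the 12 named genes higher and the 12 named genes lower in SCS 4 h, with SCS 4 h livers as circles, WI 30 min livers as squares and group means as bars. The groups do not overlap in any of the 24 genes, as the rule required, and the mean of Nupr1l1 in WI 30 min is set by 1 liver at 15.7 CPM.

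Transcripts of the red blood cell, such as those of globins and heme synthesis, were lower in stored livers. All 11 tested genes of the list were lower in SCS 4 h, with a median log2 fold change of -1.67. Of the 11, 10 (90.9%) were lower without overlap, against 5.86% of all genes. At an unadjusted p under 0.05, 8 were lower, as were 2% of all genes. The alpha globin Hba-a1 had 314.7, 868 and 689 CPM in SCS 4 h and 2162, 2173 and 1625 CPM in WI 30 min. The beta globin Hbb had 152.3, 607 and 505 CPM against 1639, 1396 and 1198 CPM. Alas2, the heme synthesis enzyme of red cell precursors, had 3.08, 10.5 and 8.12 CPM against 39.1, 24.5 and 24.7 CPM (log2 fold change -2.03 ± 0.69). SCS liver 1 was the lowest liver in 9 of the 11 genes, and no stored liver reached the lowest unstored liver in any of these 3 genes. Hbb-b1 (-1.95), LOC103694855, annotated as like hemoglobin beta-2 (-1.69), and the alpha globin chaperone Ahsp (-1.49) behaved alike, as did Bpgm, which makes the allosteric effector of hemoglobin and was named by the general rule (-0.96). The globin genes are near copies of each other, so a single gene's count is uncertain. Summed over the list, red cell transcripts were at 604, 1946 and 1336 CPM in SCS 4 h and at 4888, 4703 and 3601 CPM in WI 30 min. In bulk tissue, fewer cells of a type and less RNA per cell cannot be told apart.

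Clock genes divided the WI 30 min livers among themselves. Of 19 tested genes, 11 were higher and 8 lower, 4 (21.1%) were lower without overlap against 5.86% of all genes, and none was higher without overlap. Cry1, a repressor of the core loop on chromosome 7 at 24534615 to 24634097 in Rnor_6.0, had 3.70, 3.55 and 3.86 CPM in SCS 4 h and 10.7, 9.62 and 6.16 CPM in WI 30 min (log2 fold change -1.25 ± 0.29, edgeR adjusted p = 0.899, DESeq2 adjusted p = 0.04601). Nfil3, a repressor of clock output genes, had 27.0, 22.2 and 10.4 CPM against 39.8, 54.0 and 28.3 CPM (-1.03). Both genes kept the groups apart, but several others did not, because WI liver 3 lay with the stored livers. Dbp, a transcription factor that drives daily output, had 51.5, 96.6 and 63.0 CPM in SCS 4 h and 8.12, 7.19 and 84.1 CPM in WI 30 min. Nr1d1, the repressor REV-ERB alpha, had 75.5, 74.7 and 81.6 CPM against 7.67, 22.9 and 77.8 CPM. Arntl, which encodes the activator BMAL1 and runs opposite to those genes through the day, had 10.8, 8.49 and 6.35 CPM against 32.2, 37.9 and 10.6 CPM. Thus WI livers 1 and 2 had low Dbp and Nr1d1 with high Arntl, and WI liver 3 and all stored livers the reverse. The sources used here do not give the time of day of each procurement, and its part in these values was not tested. Nr0b2, Myc and Cry1 also had WI liver 3 nearest to the stored livers.

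**Figure D3:**
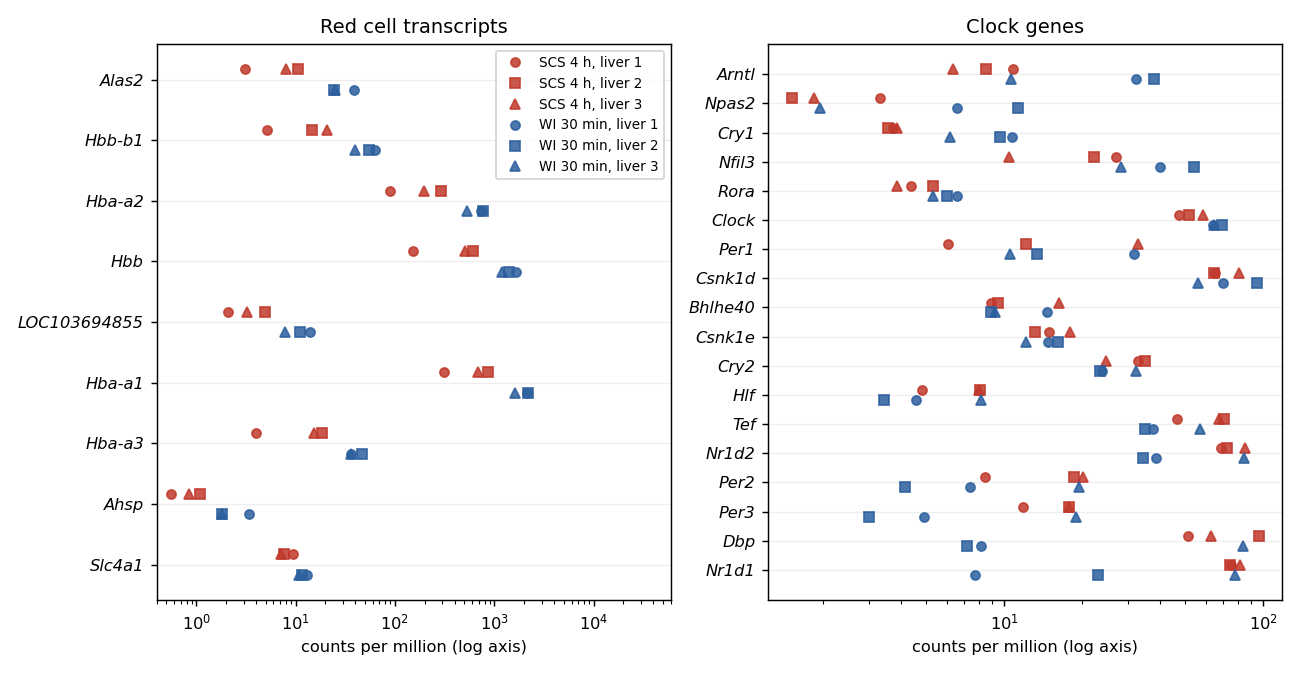
CPM on a log axis of red cell transcripts and clock genes with a mean of at least 2 CPM in SCS 4 h or WI 30 min, with colours for the groups and marker shapes for the liver numbers. Every stored liver lies left of every unstored liver in each of the 9 red cell genes drawn, while in Dbp, Nr1d1 and Arntl WI liver 3 lies beside the stored livers.

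Nuclear genes of oxidative phosphorylation were slightly higher in stored livers. All 76 tested genes for complexes I to IV, cytochrome c and the ATP synthase had a positive log2 fold change, with a median of 0.28 against 0.01 over all genes, and 26 (34.2%) were higher without overlap against 7.13%. Ndufv1, a catalytic subunit of complex I, had 138.7, 156.8 and 118.7 CPM in SCS 4 h and 106.7, 109.3 and 101.2 CPM in WI 30 min (log2 fold change 0.38). Uqcrc1, a core subunit of complex III, had 227.8, 210.8 and 213.4 CPM against 190.4, 167.5 and 152.2 CPM (0.35). Atp5f1b, the catalytic beta subunit of the ATP synthase, had 1584, 1689 and 1499 CPM against 1410, 1272 and 1241 CPM (0.28). The largest fold change, 1.87 for Ndufa1, stood on a mean of 0.87 CPM in SCS 4 h, and Cycs, at 0.03, was the lowest. The list score, the mean log2 CPM of the genes centred over the 6 livers, was 0.204, 0.242 and 0.0024 in SCS 4 h and -0.027, -0.12 and -0.301 in WI 30 min, so that SCS liver 3 and WI liver 1 nearly met. The 13 mRNAs encoded by the mitochondrion itself were mixed, with 6 higher, 7 lower and a median of -0.06.

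Most ribosomal protein genes were slightly higher too. Of 72 tested genes for cytosolic ribosomal proteins, 69 were higher and 3 lower, with a median log2 fold change of 0.25. Higher without overlap were 29 (40.3%), against 7.13% of all genes. Rpl3 had 370.6, 303.1 and 335.9 CPM in SCS 4 h and 288.1, 245.4 and 239.9 CPM in WI 30 min, and Rps23 had 190.0, 205.9 and 170.0 CPM against 128.3, 167.1 and 122.1 CPM. Many of these genes have processed copies, and their single counts are uncertain. The proteasome, which degrades tagged proteins, was higher in 31 of 31 genes with a median of 0.18, but 2 (6.45%) did so without overlap, a share near the 7.13% of all genes, and without SCS liver 1 the median was 0.11.

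These short genes followed a trend over gene length. In 5 bins of equal size by the deposited gene length, the median log2 fold change was 0.13 in genes of 53 to 1301 bases, 0.05, 0.01 and -0.02 in the next bins, and -0.06 in genes of 4003 to 29464 bases. The oxidative phosphorylation genes had a median length of 704.5 bases and the ribosomal protein genes of 699.5 bases, both in the shortest bin. Of the genes in it, 65.2% had a positive fold change, against 52.3% of all genes. At an unadjusted p under 0.05, 7.12% of them were higher, against 2.77% of all genes. The share without overlap was not counted by bin, so those lists are set only against all genes. In that bin the median centred log2 CPM was 0.104, 0.11 and -0.0183 in SCS 4 h and 0.0025, -0.0359 and -0.132 in WI 30 min, so SCS livers 1 and 2 and WI liver 3 carried the trend. With each liver's length trend removed, an alternative added after the trend was seen, the median log2 fold change was 0.18 for each of complex I, complexes II to IV and the ATP synthase, 72 of the 76 genes were positive, and the ribosomal protein genes had a median of 0.13 with 65 of 72 positive. What else moved with gene length was not tested.

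**Figure D4:**
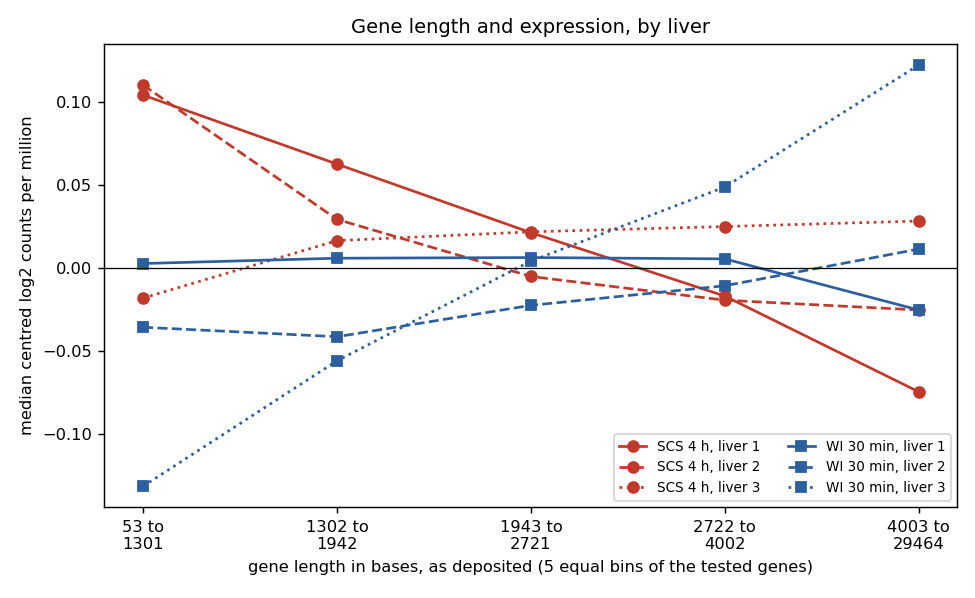
Median centred log2 CPM (y axis) in 5 equal bins of the tested genes by deposited gene length in bases (x axis), with 1 line for each of the 3 SCS 4 h and 3 WI 30 min livers. SCS livers 1 and 2 have their highest values in the shortest genes and WI liver 3 its lowest there, at -0.132.

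Interferon-stimulated genes, which are induced through type I interferon and its transcription factors, were higher in 33 of 40 tested genes and lower in 7, with a median log2 fold change of 0.34. Of these, 12 (30%) were higher and 1 (2.5%) lower without overlap, against 7.13% and 5.86% of all genes. Mx2, an antiviral GTPase, had 21.8, 16.3 and 10.9 CPM in SCS 4 h and 7.39, 3.75 and 10.3 CPM in WI 30 min (1.19). Irf7, a master transcription factor of the response, had 23.8, 12.9 and 12.9 CPM against 6.82, 5.81 and 12.7 CPM (0.97), and Psmb8, an immunoproteasome subunit, had 17.4, 17.9 and 12.3 CPM against 8.07, 10.3 and 11.6 CPM (0.67). In each of these 3 genes SCS liver 3 and WI liver 3 were within 1 CPM of each other, and the list scores of 0.341, 0.190 and 0.0726 in SCS 4 h and of -0.137, -0.504 and 0.038 in WI 30 min show the same 2 livers near each other. Without SCS liver 1 the list median was 0.21. Rsad2, which encodes the antiviral protein viperin, was the member lower without overlap, at 3.42, 5.12 and 4.78 CPM against 11.3, 6.06 and 6.89 CPM. Irf1, a transcription factor of the pathway, was nearly level at 0.07.

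Markers of Kupffer cells, the resident liver macrophages, were higher in 14 of 15 genes with a median of 0.25. Of the 15, 6 (40%) were higher without overlap, against 7.13% of all genes. The scavenger receptor Marco had 39.9, 68.8 and 38.8 CPM in SCS 4 h and 21.8, 27.1 and 29.7 CPM in WI 30 min, and the rodent Kupffer cell lectin Clec4f had 184.9, 199.9 and 177.0 CPM against 146.8, 120.2 and 165.9 CPM. Summed over the list, the markers were at 967, 1169 and 931 CPM in SCS 4 h and at 841, 797 and 934 CPM in WI 30 min, so the sums of the groups met. The median of 0.25 was 0.14 without WI liver 2 and 0.40 without WI liver 3. Sinusoidal endothelial markers were higher in 16 of 17 genes with a median of 0.26, but 2 (11.8%) without overlap, against 7.13% of all genes. The innate immune list, with cytokines, chemokines and their receptors, had 11 genes higher and 16 lower with a median of -0.03. Its fold changes ran from -1.57, for the neutrophil chemokine Cxcl1, to 1.41, and 0 of its genes were at an unadjusted p under 0.05. By list score, SCS liver 1 was the highest stored liver for interferon genes, at 0.341, and the lowest for Kupffer cell markers, at 0.019, and for endothelial markers, at -0.111, so the lists ordered the stored livers differently. The part of cell makeup in the immune values was not tested. Of the 11 pancreas markers, Pnlip, Prss2, Prss1 and Clps were at 0 in all 6 livers, and 3 markers were tested. Of these 3, 2 (66.7%) were higher without overlap, against 7.13% of all genes, and 1 had a negative fold change. Cela1, 1 of the 3, had 35.0, 41.4 and 39.3 CPM in SCS 4 h and 34.3, 34.5 and 21.7 CPM in WI 30 min.

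Stress genes gave no common direction. Of 41 immediate early genes, which respond within minutes to stimulation, 19 were higher and 22 lower with a median of -0.01, and Myc and Sgk1 were the ends of that list. Jun had 104.1, 300.6 and 238.1 CPM in SCS 4 h and 161.3, 151.5 and 181.4 CPM in WI 30 min, and Fos had 11.5, 11.5 and 19.0 CPM against 24.6, 8.12 and 13.7 CPM, so both overlapped. Egr1 was at 172.5, 215.0 and 259.2 CPM against 143.1, 193.6 and 150.1 CPM (0.41). Heat shock and chaperone genes were higher in 16 of 23 with a median of 0.11 that was -0.02 without SCS liver 3, while Hsp90aa1, the stress-inducible HSP90, was lower without overlap, at 13.6, 14.6 and 12.3 CPM in SCS 4 h and 25.6, 22.2 and 39.0 CPM in WI 30 min (-1.10). Hspa8, the constitutive HSP70 (0.33), overlapped between the groups. Rbm3, an RNA-binding protein induced by mild cold, had 23.2, 27.1 and 13.4 CPM against 9.98, 11.9 and 13.5 CPM (0.85), with SCS liver 3 inside the range of WI 30 min, and its relative Cirbp was level at -0.02.

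Endoplasmic reticulum (ER) stress genes were higher in 19 of 26, with a median of 0.18, but without SCS liver 3 the median was 0.06. Of the 26, 6 (23.1%) were higher without overlap, against 7.13% of all genes. Sdf2l1, an ER chaperone cofactor, had 38.1, 46.4 and 42.5 CPM in SCS 4 h and 27.6, 29.6 and 29.6 CPM in WI 30 min (0.55), and Manf, an ER stress-induced secreted protein, had 135.1, 113.9 and 118.8 CPM against 77.4, 89.3 and 104.8 CPM (0.44). Ddit3, the death-promoting factor CHOP, was at 5.78, 5.42 and 6.28 CPM against 4.91, 6.998 and 4.05 CPM, and Atf4 (-0.05) did not separate the groups. Antioxidant genes were higher in 32 of 36 with a median of 0.11, and 3 (8.33%) without overlap, near the background. The median was 0.07 without SCS liver 2 and 0.18 without WI liver 1. Prdx5, a mitochondrial and peroxisomal peroxidase and the only member at an unadjusted p under 0.05, had 288.6, 261.4 and 208.7 CPM in SCS 4 h and 198.8, 201.1 and 123.8 CPM in WI 30 min (0.53).

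Transcripts for mitophagy, the removal of damaged mitochondria, had medians near 0 between stored and unstored livers. Autophagy genes had a median log2 fold change of 0.01 over 44 genes. Higher without overlap were 3 (6.82%), near the 7.13% of all genes. The 30 genes of mitophagy and mitochondrial dynamics had a median of 0.04. Of these 30 genes, 2 (6.67%) were higher and 1 (3.33%) lower without overlap, against 7.13% and 5.86% of all genes. At an unadjusted p under 0.05, 2 of the 30 were higher and 0 lower, against 2.77% and 2% of all genes. These 2 were the fission adaptor Fis1 (0.42), whose livers overlapped, and Fkbp8, a mitophagy receptor (0.24), whose livers did not. The lowest fold change, -2.16 ± 1.15 (SE), belonged to Mff, a fission factor, which had 1.23, 3.25 and 0.98 CPM in SCS 4 h and 3.72, 0.87 and 19.9 CPM in WI 30 min, so 1 unstored liver set it. Fis1, Fkbp8 and Mff were picked after their values were seen. Pink1, the kinase that marks damaged mitochondria, had 268.0, 313.2 and 250.4 CPM in SCS 4 h and 253.5, 262.1 and 265.6 CPM in WI 30 min (0.09 ± 0.15). Sqstm1, the cargo receptor p62, had 516.5, 450.2 and 384.4 CPM against 347.8, 378.7 and 374.7 CPM (0.29 ± 0.15), higher in every stored liver but by a small gap at the closest. Map1lc3b, the gene of the autophagosome protein LC3B, was at 136.7, 160.1 and 179.7 CPM against 163.3, 160.2 and 163.1 CPM (-0.03 ± 0.20). Becn1 (0.15), Tomm20 (0.14), Sod1 (0.23), Sod2 (0.07), Bax (0.14) and Hmgb1 (0.01) had log2 fold changes within their standard errors or little above them. The tested Hmgb1 entry, at 37500017 to 37502237 on chromosome 16, has a deposited length of 2221 bases, its whole span without introns. With means of 5.63 CPM in SCS 4 h and 5.58 CPM in WI 30 min, it may be a copy, so its value is uncertain. Bcl2, the survival factor, was at 0.73, 0.48 and 0.92 CPM against 0.28, 0.00 and 0.42 CPM, too few counts for a firm value. Among the genes of enzymes that leak from injured liver, Ldha (0.12) and Gpt (0.18) overlapped, and Got1 had 312.1, 434.8 and 270.7 CPM in SCS 4 h and 473.6, 609.6 and 437.8 CPM in WI 30 min (-0.58 ± 0.34), lower in every stored liver by a small gap.

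Metabolic and secretory lists had small medians, but glycolysis and coagulation genes were higher without overlap more often than all genes. Drug-metabolizing P450 genes were higher in 21 of 25, with a median of 0.22. Of the 25, 1 (4%) was higher and 1 (4%) lower without overlap, against 7.13% and 5.86% of all genes. Glycolysis genes had a median of 0.10 with 5 of 24 (20.8%) higher without overlap, against 7.13% of all genes, among them Gpi at 0.21. Fatty acid oxidation genes had a median of 0.06, with Acaa1a, a peroxisomal thiolase, at 653, 589 and 559 CPM in SCS 4 h and 541, 373 and 401 CPM in WI 30 min. Cholesterol synthesis (median -0.04), fatty acid synthesis (-0.09), the urea cycle and amino acids (-0.04) and the hypoxia response (0.09) had medians near 0. Irs2, the insulin receptor substrate of the liver, was lower without overlap at 38.4, 38.4 and 27.8 CPM against 58.2, 58.5 and 50.9 CPM (-0.68). Complement, coagulation and acute phase genes were higher in 36 of 42, with a median of 0.15. Of the 42, 9 (21.4%) were higher without overlap, against 7.13% of all genes. Among these 9 were Klkb1, which encodes prekallikrein (0.40), and F2, which encodes prothrombin (0.26). SCS liver 3 had the highest score of that list, and without it the median was 0.05. Hepatocyte markers as a whole had a median of 0.11, or -0.02 with the length trend removed, with 7 of 13 higher, and their summed level was 166930 to 218820 CPM in SCS 4 h and 199590 to 211430 CPM in WI 30 min.

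The gene lists are drawn by liver together with the machine perfused livers, which also had cold storage but for 3 h. Those comparisons share the WI 30 min livers with that of SCS 4 h, so their values are given side by side and not compared as independent results.

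**Figure D5:**
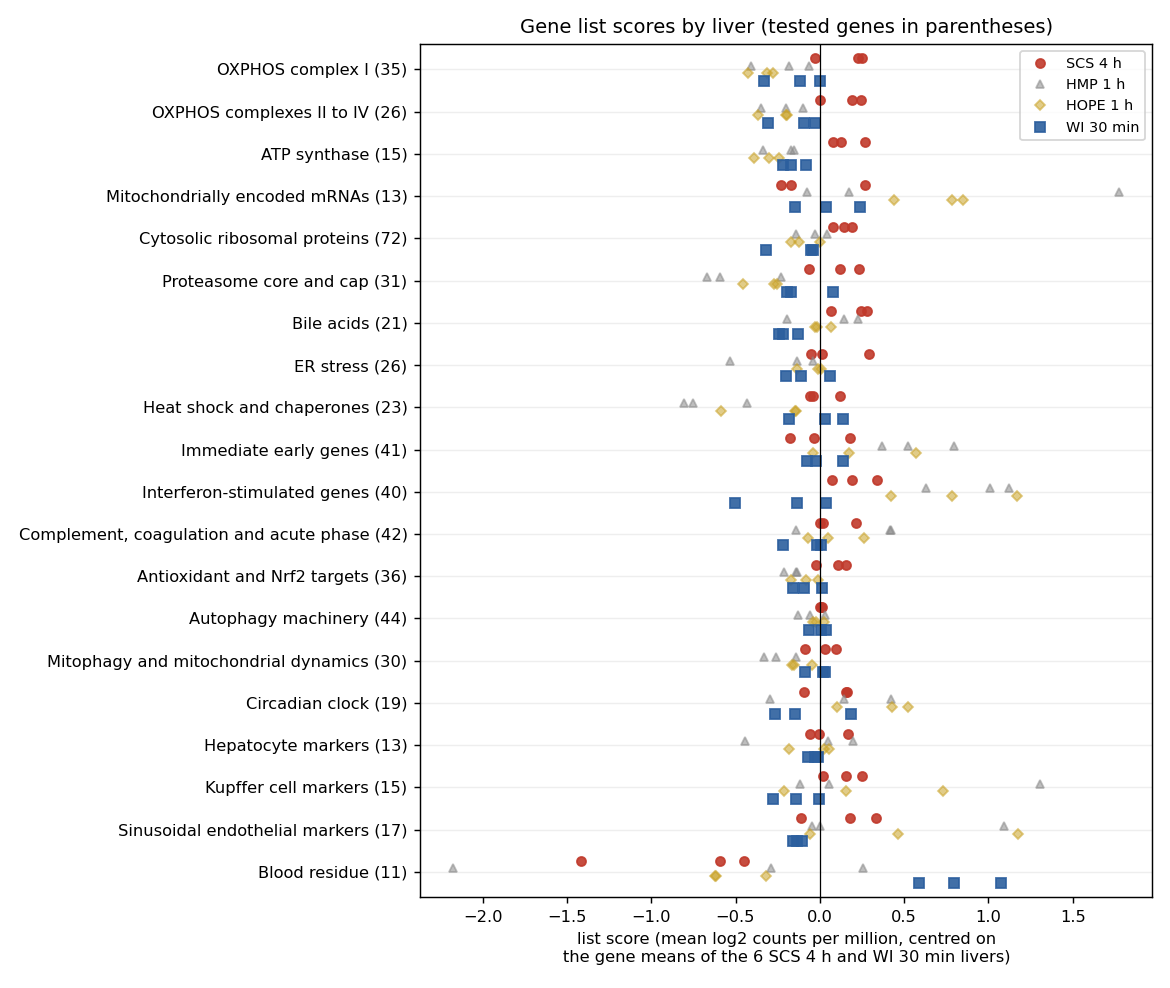
List scores (x axis, mean log2 CPM of a list's tested genes, centred on the gene means of the SCS 4 h and WI 30 min livers) for 20 lists and all 12 livers. Red cell transcripts separate SCS 4 h from WI 30 min by the widest gap, oxidative phosphorylation and ribosomal scores by a narrow one or none, and HMP liver 1 lies far out in the macrophage and mitochondrial lists.

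The log2 fold change of Abcg8 over WI 30 min was 1.82 in the SCS 4 h livers, 1.06 in the HMP 1 h livers and 0.85 in the HOPE 1 h livers, and its CPM were 22.2, 11.6 and 18.8 in HMP 1 h and 20.0, 11.8 and 13.9 in HOPE 1 h, all above the 9.73 CPM of the highest WI 30 min liver. Its partner Abcg5 was at 1.24, 0.27 and 0.76 in the same order. HMP 1 h livers had 43.5, 24.4 and 51.4 CPM of Abcg5, so that HMP liver 2 lay below every WI 30 min liver. HOPE 1 h livers had 54.8, 50.6 and 62.1 CPM of Abcg5, all above the 39.0 CPM of the highest WI 30 min liver. Nr0b2 was at 1.92, 1.19 and 0.09, again in that order. The red cell list had medians of -1.67, -1.52 and -1.48, with HMP liver 1 at 2658 CPM as the highest of the stored or perfused livers, still under the 3601 CPM of the lowest WI 30 min liver. Gtse1 was at -2.89, -3.10 and -2.04, and no stored or perfused liver exceeded 1.37 CPM, against 2.25 CPM or more in WI 30 min.

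In the same order of groups, the medians of oxidative phosphorylation genes over WI 30 min were 0.28, -0.09 and -0.15, and those of the proteasome 0.18, -0.38 and -0.23. For the heat shock list they were 0.11, -0.73 and -0.27. Interferon-stimulated genes had medians of 0.34, 1.12 and 0.89, and Oas1a fold changes of 1.90, 2.63 and 3.40. Myc was at -1.29, 0.11 and -0.69, and Rbm3 at 0.85, 0.92 and 1.27. None of these differences between the stored and the perfused livers was tested here.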

How the data were processed

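RNA-seq of 12 rat livers, 3 in each of 4 groups, was used, and the livers of SCS 4 h were compared with those of WI 30 min. Reads in pairs were aligned by the authors with Hisat2, the submitters' processing notes name Rnor_6.0 as the build, and the authors deposited raw counts per gene. The counting tool and its use of strand are not stated, so overlapping and antisense genes are uncertain. The authors also deposited FPKM, scaled by gene length and library total, and gene lengths. The FPKM were not used in any test, and neither were deposited columns of group comparisons, which hold fold changes and p-values. All value columns matched a liver, with 0 left over.

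Of 33744 genes, 19016 had a count in the 6 livers, and 13687 passed filterByExpr of edgeR 4.0.16 (R 4.3.3) and entered its quasi-likelihood test after TMM scaling, in 1 model of all 12 livers with a mean per group. Benjamini-Hochberg adjustment was over all tested genes. Named genes were the 12 largest fold changes of each direction at p under 0.01 with no overlap and 5 CPM or more, up to 4 genes per list, genes the study measures and stress genes. The other genes given with values were chosen after their values were seen. The 39 gene lists and the named genes were chosen with earlier results of these data known. List scores used log2 CPM with a prior count of 2. Lists were described by counts and medians, with no set test. Alternatives were DESeq2 1.42.0, limma-voom (limma 3.58.1), RLE scaling, other filters, only the 6 livers, the replicate number as a block, mitochondrial genes left out and each liver left out. Removing the length trend and leaving out pairs of libraries were added after seeing the data. The fit was also run on simulated counts, drawn with less spread than these data, whose common dispersion was 0.0733. That run therefore cannot show how many real differences the test would miss here. The labels do not say how the 3 livers of a group were collected, so p-values measure only the spread between these samples. Some genes of the lists are not reported here by name.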

Additional observations from a re-analysis of the deposited data

How the results depend on the processing

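DESeq2 called 13 genes higher and 2 lower in SCS 4 h, with 27 adjusted p-values not given, and edgeR without a filter on low counts called 1 gene higher, Abcg8. RLE scaling, limma-voom, a minimum count of 30, only the 6 livers and mitochondrial genes left out called 0 genes in each direction, as reported. The labels do not say whether livers with the same replicate number belong together. The correlation of deviations was 0.0867, 0.0136 and 0.1426 for livers 1, 2 and 3, and each SCS 4 h liver correlated best with its own number. Values this small cannot decide whether the numbers pair the livers. With the replicate block 1 gene was called higher, Abcg8 (adjusted p = 0.01863). At an unadjusted p under 0.05, only the 6 livers gave 433 genes lower, the fit without HMP liver 1 and HOPE liver 3 gave 419 lower, and the fit without the length trend gave 235 higher. Leaving out each liver in turn gave 0 to 1 genes called in each direction, 222 (without SCS liver 2) to 525 (without SCS liver 3) higher and 223 to 399 lower at an unadjusted p under 0.05. The genes called were LOC103694869 higher without SCS liver 2, Gtse1 lower without WI liver 2 and RT1-DMb lower without HOPE liver 1. The cause was not tested.

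Of the genes at an unadjusted p under 0.05, 58% were higher as reported, against 48.7% with RLE scaling, 43.4% without mitochondrial genes, 52.2% in DESeq2 and 47% without the length trend, while the median of all genes moved by less than 0.1. Oxidative phosphorylation genes stayed positive in 76 of 76 under those scalings and in 72 of 76 without the length trend, and red cell genes were negative in 11 of 11 throughout. Of 133 named genes, 12 had the other sign in at least 1 alternative, Cycs, Map1lc3b and Hmgb1 among them, and 0 by more than 1 standard error, and 27 values of list medians moved by more than their spread. GC content was not run, as no genome of the build was used here.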

Other observations

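Some genes called by DESeq2 fall outside the rule for named genes and were picked for that call. RT1-CE10, a class I histocompatibility gene on chromosome 20, had 2.92, 3.61 and 2.62 CPM in SCS 4 h and 1.24, 0.81 and 1.09 CPM in WI 30 min. Slc6a12, the betaine carrier, had 41.8, 37.7 and 41.9 CPM in SCS 4 h and 23.8, 28.1 and 26.7 CPM in WI 30 min, with little spread within the groups. Rnf186, an E3 ubiquitin ligase, had 4.09, 4.70 and 3.01 CPM in SCS 4 h and 0.51, 0.62 and 0.73 CPM in WI 30 min.

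LOC103694869 was split within the stored group, at 23.2, 0.48 and 18.1 CPM in SCS 4 h against 0.79, 0.31 and 0.36 CPM in WI 30 min, and DESeq2 called it (adjusted p = 0.0002887). RT1-DMb, a class II histocompatibility gene, was near 0 in every stored liver, at 0.11, 0.06 and 0.07 CPM, against 2.26, 1.62 and 1.93 CPM in WI 30 min. It was picked because edgeR called it lower without HOPE liver 1.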
